A study of Mus musculus with 18 samples.

Results

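The glutathione S-transferases described here are 10 genes, chosen by symbol: Gsta4 of the alpha class, Gstm1, Gstm2, Gstm4 and Gstm5 of the mu class, Gstp1 of the pi class, Gstt1 and Gstt3 of the theta class, Gsto1 of the omega class, and Mgst1, which encodes a membrane-bound (microsomal) enzyme. They were chosen with earlier results of these data known, so counts of members called beside the shares of all genes are descriptions. All 10 were found among the 24318 genes of the deposited table, and all 10 passed the filter on low counts that left 13258 genes for testing. Gstm4 and Mgst1 passed it through the 3 T-N1G groups and 0 of the mock groups, so for these genes passing the filter already implied a higher level in T-N1G cells. Their tests against mock cells are therefore no support. The cells were immortalised mouse embryonic fibroblasts with the genotype MafF-/-::MafG-/-::MafK-/-, a background that every group carried, mock cells included. T-N1G cells (T-NG1 in the genotype labels) expressed a tethered Nrf1-MafG heterodimer, in which the transcription factor Nrf1 (gene Nfe2l1) is joined to the small Maf protein MafG, and mock cells are the control line. Both lines were treated for 12 h with vehicle or with MG132, a proteasome inhibitor, at 0.3 µM or 1.0 µM, which gave 6 groups of 3 poly(A)-selected libraries. The sources used here do not give the promoter that drives the transgene, whether each line was 1 clone, or whether the libraries came from separate cultures, so the spread behind every p-value is that between libraries and may be technical.

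Glutathione S-transferases attach the tripeptide glutathione to reactive electrophiles, such as products of lipid peroxidation and foreign compounds, which makes them more soluble and ready for export. Many genes of this family carry antioxidant response elements, to which Nrf1 or Nrf2 bind as heterodimers with a small Maf protein. Nrf1 itself is normally cleared by the proteasome and builds up when the proteasome is inhibited. In cells without small Maf proteins these heterodimers lack their partner, and the tethered protein supplies Nrf1 and MafG as 1 molecule.

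The proximal promoters of 9 of the 10 genes were found in the RefSeq windows of the build GRCm38.p6 (13 windows of 300 bases, some genes having several start sites). Gsta4 had no entry. Both strands were searched for the antioxidant response element core TGACNNNGC, for the longer core TGANTCAGC, and for the AP-1 site TGANTCA, which overlaps the longer core wherever that occurs. TGACNNNGC was found in 12.4% of all 32851 promoter windows, TGANTCAGC in 1.19% and TGANTCA in 7.81%. Of the members, Mgst1 held TGACNNNGC on the minus strand at -56 to -48 from its start site. Gstm5 held TGACNNNGC at -42 to -34 and TGANTCA at -176 to -170. Gstp1 held TGANTCAGC at -74 to -66, whose first bases are also a TGANTCA match. The windows of these 3 genes are shown because they are the members' only matches, and those of Gstm1 and Gstm2 because these neighbouring genes differed strongly between the lines while no match lay in their windows. All are written 5′ to 3′ on the gene's own strand, with the matched bases in capitals. Mgst1 is from chr6:138140277-138140576 (plus strand), Gstm5 from chr3:107895604-107895903 (plus), Gstp1 from chr19:4037863-4038162 (minus), Gstm1 from chr3:108017769-108018068 (minus) and Gstm2 from chr3:107986371-107986670 (minus). A match describes letters in a window, and a window without a match says only that these letters are not in it.
Mgst1: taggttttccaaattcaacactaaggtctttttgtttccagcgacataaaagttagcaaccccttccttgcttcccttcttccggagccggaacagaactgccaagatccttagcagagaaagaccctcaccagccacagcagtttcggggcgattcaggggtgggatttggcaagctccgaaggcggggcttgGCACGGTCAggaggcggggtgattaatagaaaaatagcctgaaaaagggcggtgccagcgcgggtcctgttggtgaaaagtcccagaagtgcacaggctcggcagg
Gstm5: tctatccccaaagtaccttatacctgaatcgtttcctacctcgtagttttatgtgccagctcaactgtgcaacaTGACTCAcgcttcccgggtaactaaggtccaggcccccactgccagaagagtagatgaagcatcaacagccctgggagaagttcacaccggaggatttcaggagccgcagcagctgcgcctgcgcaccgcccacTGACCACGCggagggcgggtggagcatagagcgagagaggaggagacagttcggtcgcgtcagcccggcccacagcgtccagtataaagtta
Gstp1: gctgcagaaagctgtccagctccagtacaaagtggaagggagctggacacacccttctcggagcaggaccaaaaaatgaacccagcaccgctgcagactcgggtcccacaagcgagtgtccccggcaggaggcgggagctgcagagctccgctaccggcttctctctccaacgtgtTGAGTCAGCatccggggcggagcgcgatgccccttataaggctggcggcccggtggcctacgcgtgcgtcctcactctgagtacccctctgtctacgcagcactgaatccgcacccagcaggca
Gstm1: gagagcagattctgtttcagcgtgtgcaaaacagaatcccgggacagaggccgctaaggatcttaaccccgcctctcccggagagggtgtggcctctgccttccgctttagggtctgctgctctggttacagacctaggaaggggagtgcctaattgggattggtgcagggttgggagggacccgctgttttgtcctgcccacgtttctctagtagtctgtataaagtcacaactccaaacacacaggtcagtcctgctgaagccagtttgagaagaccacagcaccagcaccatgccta
Gstm2: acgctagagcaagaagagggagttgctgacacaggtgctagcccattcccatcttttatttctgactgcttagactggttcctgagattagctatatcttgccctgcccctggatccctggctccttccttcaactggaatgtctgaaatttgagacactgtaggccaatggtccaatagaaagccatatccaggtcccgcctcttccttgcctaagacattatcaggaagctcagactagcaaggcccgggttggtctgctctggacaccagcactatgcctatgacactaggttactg

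In the authors' coordinates, which are on the build mm9, the mu class genes lie in 1 cluster on chromosome 3, Gstm5 at chr3:107680148-107701603, Gstm2 at chr3:107784620-107789354, Gstm1 at chr3:107815168-107820891 and Gstm4 at chr3:107843326-107847777. Gstt3 (chr10:75236867-75244159) and Gstt1 (chr10:75246558-75261329) are neighbours as well. Gsta4 lies at chr9:78039773-78057156, Gstp1 at chr19:4035411-4037912, Gsto1 at chr19:47929479-47939278 and Mgst1 at chr6:138089058-138105273. The interval of Gstm5 overlaps those of 4933431E20Rik and Eps8l3, and how the authors' counting treated such reads is not given. In GENCODE M21 transcripts, 51.0% of the 50-base stretches of Gstp1 also occur in another gene, chiefly Gstp2, against 20.6% for Gstt3 (chiefly Gm20441), 19.9% for Gstm1 (chiefly Gstm2-ps1) and 8.3% for Gstm2. The values of these 4 genes are uncertain for this reason, by an amount that was not measured. Gsta4, Gstm4, Gstm5, Gsto1, Gstt1 and Mgst1 shared no such stretch.

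Libraries held 18164380 to 21293709 fragments. Mafg transcripts, which check the labels, were at 141.7 to 172 CPM (counts scaled to a common library size with TMM factors) in T-N1G cells under vehicle, 693 to 886 CPM at 0.3 µM and 2701 to 4238 CPM at 1.0 µM, against 0.28 to 1.32 CPM in the 9 mock libraries. Nfe2l1 in T-N1G cells moved in the same order, with 1022 to 1169, 4012 to 4986 and 14686 to 21501 CPM. Transcripts of the other two small Maf genes were also counted, at 1.0 µM with 23.8 to 45.4 CPM of Maff in T-N1G cells and 34.1 to 45.7 CPM in mock cells, and with 5.42 to 6.69 CPM of Mafk in T-N1G cells and 5.71 to 8.17 CPM in mock cells. Which part of each allele is deleted is not given, so these fragments check nothing about the knockout. A response of T-N1G cells to MG132 cannot be told apart from one to more transgene transcript. The 9 fibroblast markers were all present, at a summed 8347 to 13192 CPM, and the 6 leukocyte markers summed to at most 4.96 CPM. The 4 endothelial markers, led by Kdr, summed at 1.0 µM to 25.1 to 38.6 CPM in T-N1G cells and 63.3 to 87.0 CPM in mock cells, against 4.97 to 6.72 CPM in T-N1G cells and 5.98 to 6.72 CPM in mock cells under vehicle. The 6 epithelial markers, led by Krt14, summed to at most 38.4 CPM in T-N1G cells and 73.8 CPM in mock cells. The part of these markers in the results was not tested, and in bulk RNA fewer cells of a type cannot be told apart from less RNA per cell. Same-numbered libraries at 1.0 µM deviated from the means of their groups together in the 2 lines, with correlations across genes of 0.628 for number 1, 0.667 for number 2 and 0.782 for number 3, over genes that are not independent replicates.

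Per transcript length, Gsto1 was by far the most abundant member in every group. It accounted for 58.4% to 59.6% of the summed FPKM (fragments scaled by transcript length and library size) of the 10 genes in T-N1G cells under vehicle, 53.6% to 55.3% at 0.3 µM and 62.8% to 73.0% at 1.0 µM. In mock cells its share was 76.6% to 78.0%, 87.2% to 88.6% and 90.9% to 94.4%. The other 9 genes together summed to 130 ± 5.3 FPKM in T-N1G cells under vehicle, 195.9 ± 1.0 FPKM at 0.3 µM and 120.4 ± 13.9 FPKM at 1.0 µM, against 65.9 ± 2.0, 41.3 ± 3.4 and 24.4 ± 3.3 FPKM in mock cells (mean ± SD, n = 3 each). The ranges of this sum did not overlap between the lines under any treatment. In T-N1G cells under vehicle the order of mean FPKM levels after Gsto1 was Gstp1 (33.1), Gstm1 (23.3), Gstm2 (21.5), Gstm5 (19.2), Gsta4 (12.3), Mgst1 (9.47), Gstt3 (6.86), Gstt1 (3.19) and Gstm4 (1.12). Among neighbours in this order, the libraries of Gstm1 and Gstm2, of Gsta4 and Mgst1 and of Mgst1 and Gstt3 overlapped. In mock cells under vehicle the order was Gstp1 (27.4), Gstm5 (18.2), Gstt3 (7.63), Gstm2 (4.41), Gstm1 (3.16), Gsta4 (2.94), Gstt1 (1.63), Mgst1 (0.296) and Gstm4 (0.289), in which Gstm1 and Gsta4, and likewise Mgst1 and Gstm4, overlapped. Mean FPKM varied 179-fold across the 6 groups for Mgst1, 36.7-fold for Gsta4 and 1.66-fold for Gsto1, the widest and the narrowest of the 10. The lowest mean of Mgst1, in mock cells at 0.3 µM, rests on 1 to 6 fragments in each library. That of Gsta4, in mock cells at 1.0 µM, rests on 9 to 21.

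**Figure D1:**
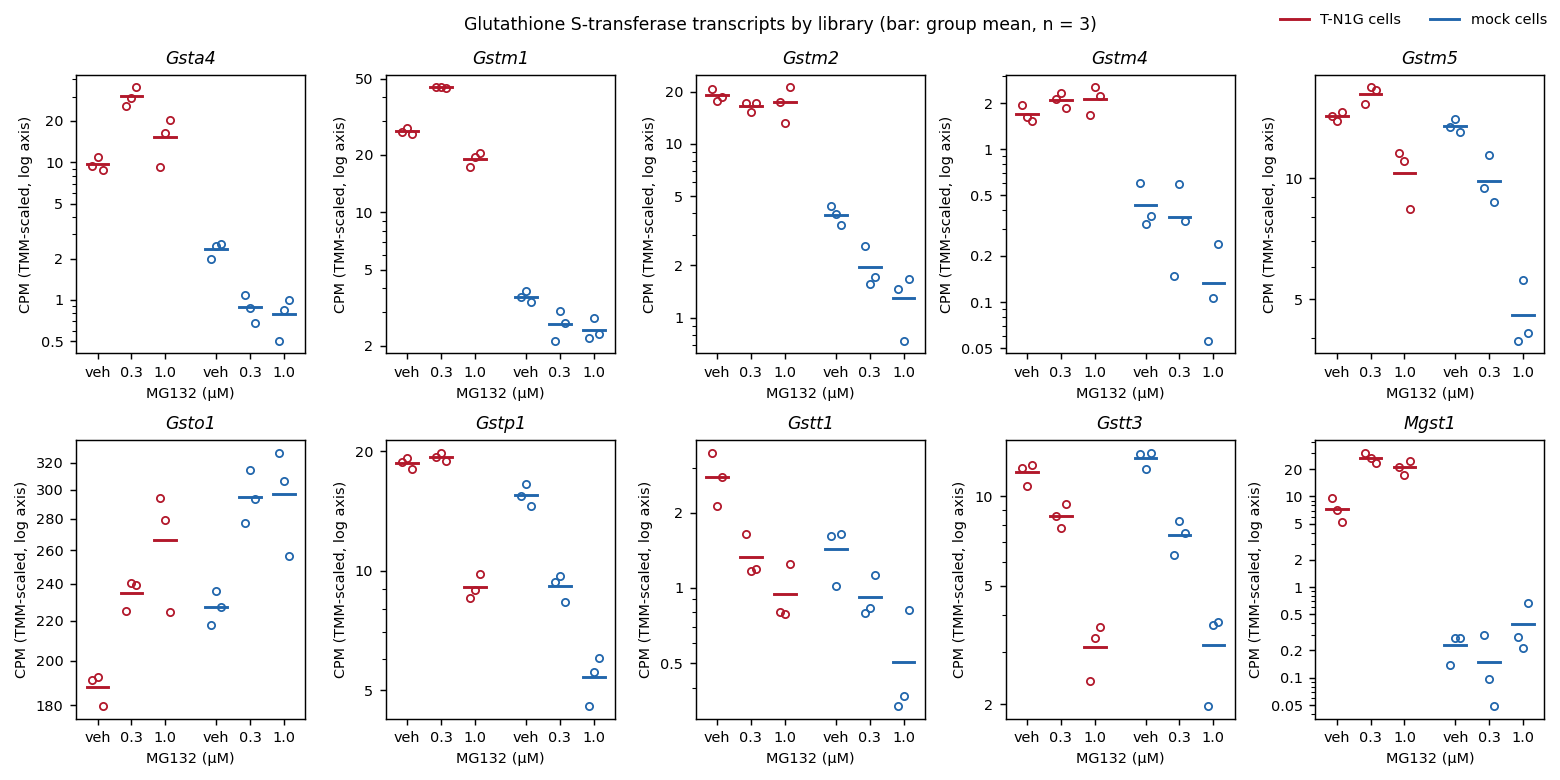
Level of each gene in every library, in CPM after TMM scaling on a log axis with its own range in each panel. Open circles are libraries, bars are means of 3 libraries, T-N1G groups stand left in red and mock groups right in blue, each by MG132 dose. Mgst1, Gsta4, Gstm1, Gstm2, Gstm4 and, by a small margin under vehicle, Gstp1 lie higher in T-N1G cells under every treatment with no overlap. Gstt3 falls with dose in both lines.

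The comparison of T-N1G with mock cells asks which members differed between the lines. An effect of the tethered heterodimer cannot be told apart here from other differences between the lines. Under vehicle, 6 of the 10 members were higher in T-N1G cells (Mgst1, Gstm1, Gstm2, Gsta4, Gstm4 and Gstt1), where 8.43% of all genes tested were called higher, and 0 were lower, where 7.72% were. The call was an adjusted p under 0.05 in edgeR's quasi-likelihood F test, with Benjamini-Hochberg adjustment over all 13258 genes. The count of 0 compares with 1 member, Gsto1, at an unadjusted p under 0.05 and 1 by DESeq2. At 0.3 µM, 7 members were higher (25.0% of all genes) and 1 was lower (23.5%). At 1.0 µM, 7 were higher (30.7%) and 0 lower (31.3%), also with 0 at an unadjusted p under 0.05 and 0 by DESeq2. Gstm5 and Gstp1 were called higher at both doses of MG132, and Gstt1 at neither. Every count of higher members, and the medians that follow, include Mgst1 and Gstm4. These passed the filter through T-N1G groups alone, so their tests against mock cells are no support. The members were also chosen with earlier results of these data known, so their counts and medians beside those of all genes are a description. The median log2 fold change of the 10 members, T-N1G over mock, was 1.46 under vehicle, 1.81 at 0.3 µM and 2.07 at 1.0 µM, against 0.00, 0.01 and -0.01 over all genes tested.

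**Figure D2:**
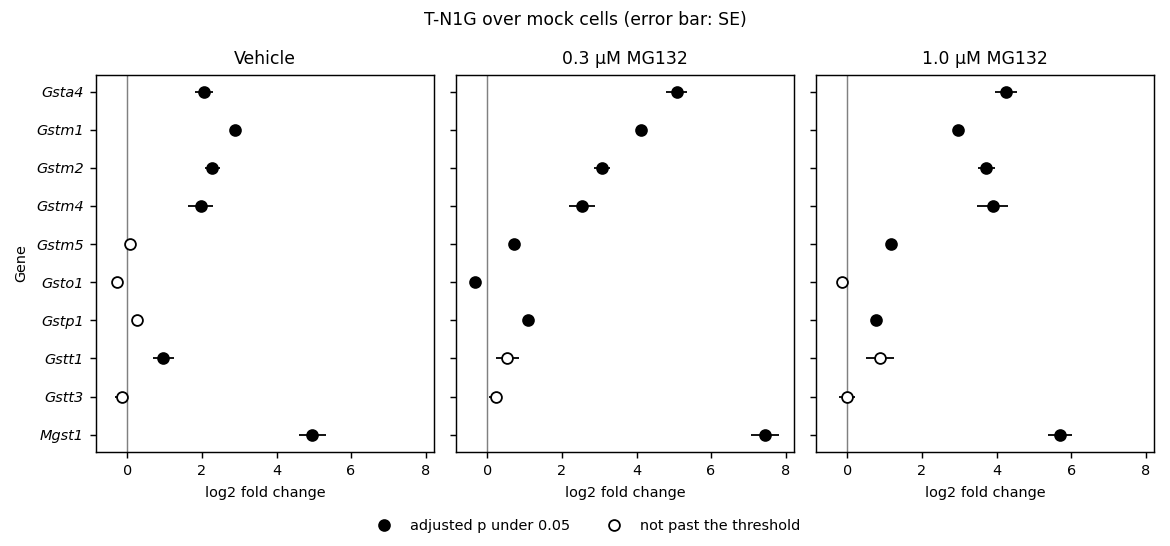
Log2 fold change of each gene, T-N1G over mock, under vehicle, 0.3 µM and 1.0 µM MG132. Points are edgeR estimates from 18 libraries and bars are standard errors. Filled points passed an adjusted p of 0.05. Mgst1 lies farthest right in each panel, at 4.96, 7.45 and 5.70.

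Mgst1, a membrane-bound enzyme with transferase and peroxidase activity, showed the widest gap between the lines. It had 9.64, 7.13 and 5.25 CPM in T-N1G libraries under vehicle, 30.6, 26.7 and 23.2 CPM at 0.3 µM and 21.2, 17.1 and 24.5 CPM at 1.0 µM. In mock libraries it had 0.138, 0.278 and 0.274 CPM under vehicle, 0.298, 0.098 and 0.049 CPM at 0.3 µM and 0.282, 0.211 and 0.672 CPM at 1.0 µM, which are 1 to 14 fragments each. All T-N1G libraries lay above all mock libraries. The log2 fold change over mock was 4.96 ± 0.37 (SE) under vehicle, 7.45 ± 0.37 at 0.3 µM and 5.70 ± 0.33 at 1.0 µM, with edgeR adjusted p of 7.41e-08, 3.94e-11 and 9.5e-11. These folds rest on few mock fragments, and the tests are no support, as Mgst1 passed the filter through T-N1G groups alone. Without library 1 of mock cells at 0.3 µM the log2 fold change there was 8.40, and without library 3 of mock cells at 1.0 µM it was 6.38.

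Gsta4, the alpha class enzyme known for conjugating the lipid peroxidation product 4-hydroxynonenal, had 9.41, 11.0 and 8.79 CPM in T-N1G libraries under vehicle, 25.8, 29.5 and 35.1 CPM at 0.3 µM and 9.21, 16.3 and 20.2 CPM at 1.0 µM. In mock libraries it had 1.98, 2.45 and 2.56 CPM under vehicle, 1.09, 0.881 and 0.683 CPM at 0.3 µM and 0.507, 0.845 and 1.01 CPM at 1.0 µM. The lines did not overlap under any treatment, and the gap was widest at 0.3 µM. The log2 fold change over mock was 2.06 ± 0.25 (SE) under vehicle, 5.08 ± 0.28 at 0.3 µM and 4.25 ± 0.29 at 1.0 µM (edgeR adjusted p = 1.56e-05, 1.18e-10 and 7.67e-10).

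Among the mu class enzymes, which conjugate a broad range of electrophiles, Gstm1, Gstm2 and Gstm4 were higher in T-N1G cells under every treatment. Gstm1 had 26.4, 27.7 and 25.9 CPM in T-N1G libraries under vehicle, 45.2, 45.1 and 45.0 CPM at 0.3 µM and 17.3, 19.5 and 20.5 CPM at 1.0 µM. In mock libraries Gstm1 had 3.59, 3.89 and 3.38 CPM under vehicle, 2.13, 3.04 and 2.63 CPM at 0.3 µM and 2.20, 2.80 and 2.30 CPM at 1.0 µM. The lowest T-N1G library was thus well above the highest mock library, and the libraries of a group were close together. Its log2 fold change over mock was 2.88 ± 0.11 (SE), 4.11 ± 0.12 and 2.97 ± 0.12 in order of dose (edgeR adjusted p = 1.1e-11, 5.27e-14 and 1.03e-12).

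Gstm2 had 20.6, 17.7 and 18.7 CPM in T-N1G libraries under vehicle, 17.2, 15.3 and 17.1 CPM at 0.3 µM and 17.5, 13.2 and 21.2 CPM at 1.0 µM, against 4.38, 3.93 and 3.42, then 2.58, 1.57 and 1.71, then 1.47, 0.739 and 1.68 CPM in mock libraries at the same doses. The T-N1G libraries stayed within a narrow band across doses, whereas the mock libraries were lower at each dose than under vehicle. The log2 fold change over mock was 2.28 ± 0.20 (SE), 3.08 ± 0.22 and 3.73 ± 0.23 in order of dose (edgeR adjusted p = 3.7e-07, 2.68e-09 and 2.1e-10). Gstm4 was scarcer, with 27 to 46 fragments in each T-N1G library and 1 to 13 in each mock library. It passed the filter through T-N1G groups alone, so its tests against mock cells are no support. Its group means in order of dose were 1.69, 2.11 and 2.14 CPM in T-N1G cells, against 0.429, 0.359 and 0.134 CPM in mock cells, without overlap of the lines. Its log2 fold change over mock was 1.96 ± 0.34 (SE), 2.53 ± 0.35 and 3.89 ± 0.43 (edgeR adjusted p = 0.000617, 1.19e-05 and 3.19e-07), and the last was 4.61 without library 3 of mock cells at 1.0 µM and 4.55 without both libraries numbered 3.

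Gstm5, the mu class gene at the far end of the cluster, and Gstp1, the pi class enzyme, were not called between the lines under vehicle and were higher in T-N1G cells under MG132. Gstm5 had 14.3, 13.8 and 14.6 CPM in T-N1G libraries under vehicle, 15.3, 16.8 and 16.6 CPM at 0.3 µM and 11.5, 11.1 and 8.40 CPM at 1.0 µM. In mock libraries Gstm5 had 13.4, 14.1 and 13.0 CPM under vehicle, 9.43, 11.5 and 8.73 CPM at 0.3 µM and 3.95, 5.60 and 4.12 CPM at 1.0 µM. The lines overlapped under vehicle and separated at both doses. Its log2 fold change over mock was 0.08 ± 0.13 (SE, adjusted p = 0.751) under vehicle, 0.72 ± 0.14 (0.000269) at 0.3 µM and 1.18 ± 0.15 (1.77e-06) at 1.0 µM by edgeR. Gstp1 had 18.8, 19.2 and 18.1 CPM in T-N1G libraries under vehicle, 19.3, 19.9 and 18.9 CPM at 0.3 µM and 8.54, 8.96 and 9.81 CPM at 1.0 µM. In mock libraries Gstp1 had 15.4, 16.6 and 14.6 CPM under vehicle, 9.38, 9.69 and 8.34 CPM at 0.3 µM and 4.57, 5.54 and 6.04 CPM at 1.0 µM. Every T-N1G library lay above every mock library at the same dose, by a small margin under vehicle. Its log2 fold change over mock was 0.27 ± 0.10 (SE, adjusted p = 0.0748), 1.08 ± 0.10 (1.3e-07) and 0.75 ± 0.11 (1.3e-05) in order of dose by edgeR. DESeq2 called the difference under vehicle, at a log2 fold change of 0.28 and an adjusted p of 0.0372, as did edgeR without both 1.0 µM libraries numbered 3 (0.27, 0.036).

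Of the theta class genes, Gstt1 was called under vehicle, higher in T-N1G cells, and Gstt3 was called at no dose. Gstt1 had 3.48, 2.12 and 2.76 CPM in T-N1G libraries, against 1.61, 1.02 and 1.64 CPM in mock libraries under vehicle, with no overlap. This log2 fold change of 0.96 ± 0.28 (SE, edgeR adjusted p = 0.0242) was not called without library 1 of T-N1G cells (0.77, adjusted p = 0.132), library 3 of T-N1G cells (0.97, 0.0581) or library 2 of mock cells (0.77, 0.13). Under MG132 the difference in Gstt1 was 0.53 ± 0.32 (adjusted p = 0.175) at 0.3 µM and 0.87 ± 0.37 (0.0504) at 1.0 µM. At 1.0 µM it was 1.40 (0.00719) without library 3 of mock cells at 1.0 µM, 1.11 (0.0425) without both libraries numbered 3, and 0.88 (0.0285) with the replicate number as a block. Gstt3 had log2 fold changes over mock of -0.16 ± 0.17, 0.22 ± 0.18 and -0.02 ± 0.21 (SE, edgeR adjusted p = 0.591, 0.326 and 0.942). Its 95% intervals ran from -0.49 to 0.18, from -0.13 to 0.57 and from -0.43 to 0.39.

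Gsto1, an omega class enzyme with thioltransferase and dehydroascorbate reductase activity, ran the other way. It had 191.3, 192 and 179.7 CPM in T-N1G libraries under vehicle, 225, 241 and 239 CPM at 0.3 µM and 294, 279 and 225 CPM at 1.0 µM. In mock libraries it had 218, 236 and 227 CPM under vehicle, 277, 314 and 293 CPM at 0.3 µM and 328, 306 and 256 CPM at 1.0 µM. All T-N1G libraries were below all mock libraries under vehicle and at 0.3 µM, and the lines overlapped at 1.0 µM. The log2 fold change over mock was -0.27 ± 0.10 (SE, adjusted p = 0.0617), -0.33 ± 0.10 (0.00919) and -0.16 ± 0.10 (0.164) by edgeR. The call at 0.3 µM was lost without library 2 of mock cells there (-0.28, adjusted p = 0.0507). The vehicle difference was called by DESeq2 (-0.27, 0.0467), with the replicate number as a block (-0.28, 0.032) and without both 1.0 µM libraries numbered 3 (-0.27, 0.00345), and that at 1.0 µM also without both libraries numbered 3 (-0.19, 0.033).

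MG132 lowered most members in mock cells. At 0.3 µM against vehicle, 6 of the 10 members fell (28.1% of all genes tested fell) and 1, Gsto1, rose (25.0%). At 1.0 µM, 8 fell (37.4%) and 1, again Gsto1, rose (32.4%). The median log2 fold change of the members was -0.63 at 0.3 µM and -1.53 at 1.0 µM, against -0.02 and -0.04 over all genes. With library size only, without TMM scaling, the medians over all genes were -0.08 and -0.13, and the members' direction of change was the same in both.

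Gstt3 had the largest fall at 1.0 µM. In mock libraries it had 13.9, 12.4 and 14.1 CPM under vehicle, 6.35, 8.27 and 7.56 CPM at 0.3 µM and 1.97, 3.70 and 3.79 CPM at 1.0 µM. The 3 groups did not overlap. Its log2 fold change against vehicle was -0.86 ± 0.17 (SE) at 0.3 µM and -2.08 ± 0.19 at 1.0 µM (edgeR adjusted p = 0.00045 and 2.7e-08). In the libraries given above, Gstp1 and Gstm5 fell in the same graded way, by 0.76 ± 0.10 and by 1.52 ± 0.11 for Gstp1 (edgeR adjusted p = 7.33e-06 and 1.28e-09) and by 0.45 ± 0.14 and by 1.57 ± 0.15 for Gstm5 (0.00933 and 3.32e-08) on the log2 scale. Gsta4 fell by 1.39 ± 0.32 at 0.3 µM and by 1.54 ± 0.33 at 1.0 µM (0.00137 and 0.000463), and Gstm2 by 1.00 ± 0.23 and by 1.58 ± 0.25 (0.00148 and 2e-05). Gstm1 fell by 0.47 ± 0.13 and by 0.57 ± 0.14 (0.00582 and 0.0011). Gstt1 and Gstm4 were called at 1.0 µM, at -1.45 ± 0.34 (0.00111) and -1.59 ± 0.53 (0.012), and not at 0.3 µM, at -0.63 ± 0.31 (0.0979) and -0.25 ± 0.43 (0.649). Mgst1, near its floor in mock cells, passed at neither dose, at -0.62 ± 0.72 (0.488) and 0.78 ± 0.59 (0.248). Gsto1 rose by 0.38 ± 0.10 at 0.3 µM and 0.39 ± 0.10 at 1.0 µM (0.00307 and 0.00168).

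From 0.3 to 1.0 µM in mock cells, 3 members fell further, Gstt3, Gstm5 and Gstp1 (27.8% of all genes fell), with log2 fold changes of -1.22 ± 0.19, -1.11 ± 0.15 and -0.76 ± 0.11 (SE, edgeR adjusted p = 7.3e-05, 1.27e-05 and 3.53e-05). A count of 0 rose by edgeR (21.8% of all genes), with 1 at an unadjusted p under 0.05 and 1 by DESeq2, Mgst1 in both cases. Without both libraries numbered 3 the step had 6 members called in place of 3, with Gstm2 at -0.80 (adjusted p = 0.0343), Gstm4 at -2.02 (0.0269) and Gstt1 at -1.32 (0.0118) added. Gstt1 was also called with the replicate number as a block (-0.83, 0.0414). Several calls rested on single libraries. At 0.3 µM, that of Gstm1 was lost without library 1 of that group (-0.35, adjusted p = 0.0593) and that of Gstm5 without library 3 (-0.37, 0.0544). At 1.0 µM, that of Gstm4 was lost without library 1 under vehicle (-1.22, 0.0778) or libraries 1 (-1.20, 0.0678) or 2 (-1.37, 0.0528) at 1.0 µM, while it was -2.31 without library 3.

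In T-N1G cells some members rose and others fell under MG132, in counts not far from the shares of all genes. At 0.3 µM, Mgst1, Gsta4, Gstm1 and Gsto1 rose (4 of 10, where 29.1% of all genes tested rose), Gstt1 and Gstt3 fell (2 of 10, where 30.3% fell), and Gstm2, Gstm4, Gstm5 and Gstp1 did not pass the test. At 1.0 µM, Mgst1, Gsta4 and Gsto1 rose (3 of 10, where 37.5% rose), and Gstm1, Gstm5, Gstp1, Gstt1 and Gstt3 fell (5 of 10, where 38.9% fell). The median log2 fold change of the members was 0.25 at 0.3 µM and -0.30 at 1.0 µM, against -0.01 and -0.01 over all genes. With library size only, the medians over all genes were -0.08 and -0.15.

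Mgst1 rose on the log2 scale by 1.87 ± 0.22 (SE) at 0.3 µM and by 1.51 ± 0.22 at 1.0 µM (edgeR adjusted p = 1.33e-06 and 7.91e-06), and all libraries at both doses lay above those under vehicle. Gsta4 rose by 1.63 ± 0.21 at 0.3 µM (3.34e-06) and by 0.65 ± 0.21 at 1.0 µM (0.0108), where library 1 overlapped the vehicle libraries. The call for Gsta4 at 1.0 µM was lost without library 3 of that group (0.41, adjusted p = 0.0872), without both libraries numbered 3 (0.41, 0.0812) and with library size only (0.52, 0.0503). Gstm1 rose by 0.76 ± 0.10 at 0.3 µM (2.36e-06) and fell by 0.48 ± 0.10 at 1.0 µM (0.000261), and the 3 groups did not overlap. Gsto1 rose by 0.32 ± 0.10 and 0.50 ± 0.10 (0.00769 and 0.000128).

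Gstp1 was nearly level at 0.3 µM, with a log2 fold change of 0.05 ± 0.10 (SE, edgeR adjusted p = 0.686, 95% interval -0.15 to 0.24), whose sign turned with library size only (-0.02), and fell by 1.04 ± 0.10 at 1.0 µM (4.86e-08). Gstm5 was at 0.19 ± 0.13 (0.233) at 0.3 µM and fell by 0.47 ± 0.14 at 1.0 µM (0.00474). Gstm2 was at -0.20 ± 0.18 (0.358) and -0.13 ± 0.18 (0.512), and Gstm4 at 0.31 ± 0.28 (0.353) and 0.34 ± 0.29 (0.284). The theta class genes fell at both doses. Gstt1 had 1.64, 1.16 and 1.19 CPM at 0.3 µM and 0.798, 0.789 and 1.25 CPM at 1.0 µM in T-N1G libraries, and fell on the log2 scale by 1.06 ± 0.28 (0.00346) and by 1.55 ± 0.30 (0.000145). Gstt3 had 12.5, 10.9 and 12.8 CPM under vehicle, 8.57, 7.84 and 9.41 CPM at 0.3 µM and 2.40, 3.33 and 3.63 CPM at 1.0 µM in T-N1G libraries, with no overlap of the 3 groups. Its log2 fold change against vehicle was -0.48 ± 0.17 (0.0227) and -1.94 ± 0.19 (4.01e-08). The call at 0.3 µM was lost without libraries 1 (-0.43, adjusted p = 0.0777) or 3 (-0.42, 0.0866) under vehicle or libraries 1 (-0.48, 0.0549) or 2 (-0.42, 0.0849) at 0.3 µM.

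From 0.3 to 1.0 µM in T-N1G cells, 5 members fell (30.8% of all genes fell) and 0 rose by edgeR (29.3%), with 0 at an unadjusted p under 0.05 and 1, Gsto1, by DESeq2. Gstt3 fell by 1.46 ± 0.19 (SE), Gstm1 by 1.24 ± 0.10, Gstp1 by 1.09 ± 0.10, Gsta4 by 0.98 ± 0.21 and Gstm5 by 0.65 ± 0.14 on the log2 scale (edgeR adjusted p = 7.73e-06, 6.11e-08, 3.01e-07, 0.000645 and 0.000529). Gsta4 and Gstm1 were thus highest at the middle dose, while Mgst1 at 1.0 µM was not called against 0.3 µM (-0.35 ± 0.21, adjusted p = 0.16) and was called lower without both libraries numbered 3 (-0.49, 0.0478). Without them Gsto1 was called higher over this step (0.28, 0.00188). Over the same step Mafg and Nfe2l1 transcripts went on rising, as given above, and a relation to the members' levels was not tested.

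**Figure D3:**
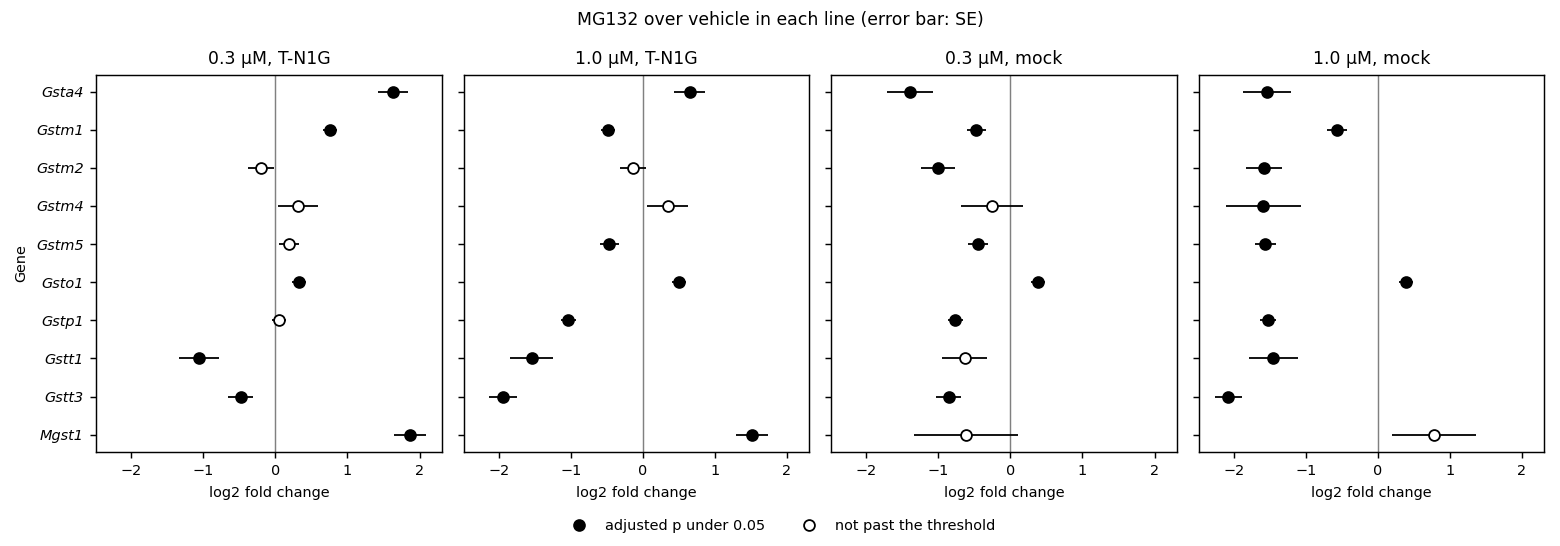
Log2 fold change of each gene at 0.3 µM and 1.0 µM MG132 over vehicle, with T-N1G cells in the left pair of panels and mock cells in the right pair. Points are edgeR estimates, bars are standard errors, and filled points passed an adjusted p of 0.05. Gsto1 lies right of 0 in all panels and Gstt3 left of 0, whereas Gsta4 lies right in T-N1G cells (1.63 and 0.65) and left in mock cells (-1.39 and -1.54).

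Whether MG132 acted differently in the lines was tested by the interaction of line and dose, the log2 fold change against vehicle in T-N1G cells minus that in mock cells. At 0.3 µM, 5 of 10 members had a higher response in T-N1G cells, where 14.2% of all genes did, and 0 a lower one, where 11.0% did. At 1.0 µM, 5 were higher (22.9%) and 0 lower (22.1%). Both counts of 0 by edgeR were also 0 at an unadjusted p under 0.05 and 0 by DESeq2. The 5 at 0.3 µM include Mgst1, with 1 to 6 fragments in each mock library under vehicle and at that dose. The 5 at 1.0 µM include Gstm4, with 1 to 13 fragments in each mock library under vehicle and at that dose. Both genes passed the filter through T-N1G groups alone, so these calls are no support. Gsta4 (3.02 ± 0.38 and 2.19 ± 0.39, SE), Gstm5 (0.64 ± 0.19 and 1.10 ± 0.20) and Gstp1 (0.81 ± 0.14 and 0.48 ± 0.15) passed at both doses, with edgeR adjusted p of 1.73e-05 and 0.000213, 0.0191 and 0.000213, and 0.000421 and 0.0135. For Gsta4 the response was upward in T-N1G cells and downward in mock cells. For Gstp1 and Gstm5 at 1.0 µM both lines fell, mock cells further.

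Gstm1 passed at 0.3 µM (1.24 ± 0.16, SE, edgeR adjusted p = 2.72e-05) and not at 1.0 µM (0.09 ± 0.17, 0.692), where both lines fell and the 95% interval of the difference was -0.24 to 0.42. Mgst1 passed at 0.3 µM (2.49 ± 0.77, 0.0238) and not at 1.0 µM (0.74 ± 0.67, 0.394). Gstm2 (1.45 ± 0.31, 0.000977) and Gstm4 (1.93 ± 0.60, 0.0136) passed at 1.0 µM, and at 0.3 µM they were at 0.80 ± 0.30 (0.0544) and 0.56 ± 0.52 (0.467). Gstm2 at 0.3 µM was called without both 1.0 µM libraries numbered 3 (0.80, 0.024). Gstt1, Gstt3 and Gsto1 passed at neither dose. Their interactions were -0.43 ± 0.43 and -0.10 ± 0.49 for Gstt1, 0.38 ± 0.25 and 0.14 ± 0.27 for Gstt3, and -0.05 ± 0.14 and 0.12 ± 0.14 for Gsto1, whose 95% intervals of -0.32 to 0.21 and -0.15 to 0.38 were the narrowest. Some of these calls rested on single libraries. Without library 2 of mock cells under vehicle, Gstm5 at 0.3 µM was at 0.60 (adjusted p = 0.0504), Mgst1 at 0.3 µM at 2.33 (0.0826) and Gstp1 at 1.0 µM at 0.39 (0.0679). Leaving out library 3 of mock cells at 0.3 µM gave 0.56 for Gstm5 (0.0597) and 2.08 for Mgst1 (0.067). Mgst1 was also not called without library 3 under vehicle (2.34, 0.0807) or library 2 at 0.3 µM (2.27, 0.0614) of mock cells, and was at 3.44 without library 1 at 0.3 µM. Gstp1 at 1.0 µM was not called without library 3 of T-N1G cells under vehicle (0.41, 0.0553) or at 1.0 µM (0.38, 0.0582), without library 1 of mock cells at 1.0 µM (0.33, 0.0678), or without the expression filter (0.42, 0.059). Gstm4 at 1.0 µM was not called without library 1 of mock cells under vehicle (1.58, 0.0638) or at 1.0 µM (1.55, 0.0518), and was at 2.64 without library 3 at 1.0 µM.

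**Figure D4:**
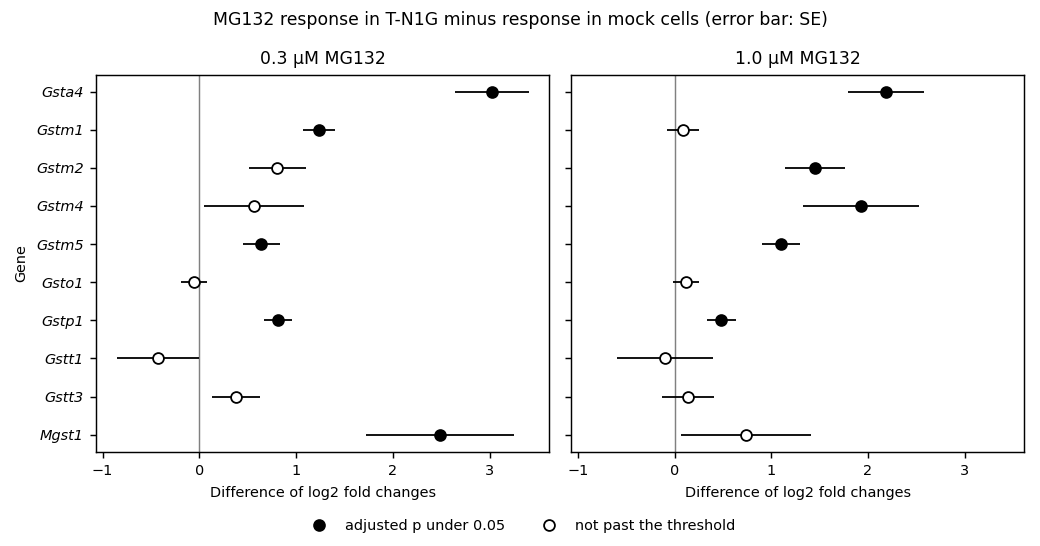
Difference between the MG132 responses of the lines for each gene, as the log2 fold change against vehicle in T-N1G cells minus that in mock cells, at 0.3 µM and 1.0 µM. Points are edgeR estimates, bars are standard errors, and filled points passed an adjusted p of 0.05. Gsta4 stands farthest right at both doses (3.02 and 2.19), and no filled point lies left of 0.

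Of 18 further genes of the glutathione S-transferase and related superfamilies, 7 passed the filter on low counts. T-N1G cells had 1, 2 and 4 of the 7 higher than mock cells in order of dose, where 8.43%, 25.0% and 30.7% of all genes tested were, and the median log2 fold changes were 0.15, 0.11 and 0.63. By edgeR 0 of them were lower at any dose, with 1, 0 and 0 at an unadjusted p under 0.05 and 0 by DESeq2. Gstz1, an enzyme of tyrosine breakdown, was called under all treatments, at 0.31, 0.81 and 0.63 (edgeR adjusted p = 0.0328, 3.56e-06 and 5.27e-05). Gsta1, an alpha class gene, had 7 to 11 fragments in each T-N1G library at 0.3 µM, against 0 in all mock libraries at that dose, and was at least 9.7-fold higher against a floor of 3 fragments over the group (edgeR adjusted p = 0.000585). With 0 to 1 fragments in every mock library, Gsta1 passed the filter through T-N1G groups alone, so its tests against mock cells are no support. The counts of higher genes at both doses include it. At 1.0 µM it had 3 to 13 fragments in T-N1G libraries, against 0 to 1 in mock libraries (0.00164). Ptges, a prostaglandin E synthase, averaged 2.19 ± 0.79 CPM in T-N1G cells and 0.291 ± 0.137 CPM in mock cells at 1.0 µM (SD, n = 3 each), a log2 fold change of 2.87 (edgeR adjusted p = 3.57e-06). In mock cells at 1.0 µM against vehicle, 4 of the 7 fell (37.4% of all genes) and 1 rose (32.4%), led by Gstk1 (-2.18), Mgst3 (-1.72) and Gstz1 (-1.56, edgeR adjusted p = 9.78e-05, 4.42e-06 and 5.59e-10). In T-N1G cells 4 fell (38.9% of all genes) and 3 rose (37.5%) at that dose, led by Ptges (2.81), Gsto2 (2.06) and Gsta1 (1.83, edgeR adjusted p = 1.68e-06, 0.00126 and 0.0242). DESeq2 called 2 of the 7 higher there. Gsta1 had 0 to 5 fragments in T-N1G libraries under vehicle and passed the filter through T-N1G libraries given MG132. Its test against vehicle is thus no support.

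Of 28 genes that supply, use or export glutathione, 25 were tested. T-N1G cells had 4, 10 and 12 of the 25 higher than mock cells in order of dose (8.43%, 25.0% and 30.7% of all genes), and 1, 2 and 4 lower (7.72%, 23.5% and 31.3%). The median log2 fold changes were 0.08, 0.22 and 0.23. Under vehicle Gclm, the modifier subunit of glutamate-cysteine ligase, led with a log2 fold change of 1.04, followed by Glrx (glutaredoxin, 0.52) and Gss (glutathione synthetase, -0.42; edgeR adjusted p = 9.68e-08, 0.0466 and 0.00155). At 0.3 µM Abcc2, an exporter of glutathione conjugates, had 30 to 76 fragments in T-N1G libraries, against 0 to 1 in mock libraries (edgeR adjusted p = 3.21e-06). Abcc2 had at most 2 fragments in any mock library and passed the filter through T-N1G groups alone, so its tests against mock cells are no support either. The counts of higher genes at both doses include it. Esd, which hydrolyses S-formylglutathione, averaged 503 ± 20.8 CPM in T-N1G cells and 88.9 ± 2.1 CPM in mock cells at this dose (SD, n = 3 each), at a log2 fold change of 2.50, and Gclm was at 2.38 (edgeR adjusted p = 5.77e-12 and 2.87e-13). The same 3 genes led at 1.0 µM, with 65 to 116 fragments of Abcc2 in T-N1G libraries against 0 to 2 in mock libraries, and log2 fold changes of 2.58 for Gclm and 2.54 for Esd (edgeR adjusted p = 1.14e-07, 4.69e-14 and 1.96e-12).

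In mock cells at 1.0 µM, 9 of the 25 rose against vehicle and 10 fell, shares near the 32.4% and 37.4% of all genes. Largest were Ggct (3.54) and Chac1 (2.11), which break down gamma-glutamyl peptides and glutathione, and the cystine importer Slc7a11 (2.03; edgeR adjusted p = 3.47e-08, 5.84e-09 and 8.97e-06). In T-N1G cells 14 rose (37.5% of all genes) and 8 fell (38.9%) at that dose, led by Abcc2, Slc7a11 (4.07) and Ggct (3.10; edgeR adjusted p = 3.91e-08, 3.42e-09 and 7.58e-08). Abcc2 had 0 to 4 fragments in T-N1G libraries under vehicle and passed the filter through the T-N1G groups given MG132. Its test against vehicle is thus no support. The response to MG132 was higher in T-N1G cells for 9 of the 25 at 0.3 µM (14.2% of all genes) and 10 at 1.0 µM (22.9%), and lower for 4 at 1.0 µM (22.1%). At 0.3 µM it was lower for 0 by edgeR, also 0 at an unadjusted p under 0.05 and 0 by DESeq2. Among the genes called, the interaction was largest for Esd (2.18 and 2.23) and Slc7a11 (2.04 and 2.05). The edgeR adjusted p was 1.73e-08 and 3.87e-09 for Esd and 0.00134 and 0.000468 for Slc7a11. Glrx followed at 0.3 µM (1.52, 0.000232) and Gsr, glutathione reductase, at 1.0 µM (1.69, 1.19e-08).

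The genes most like each member in pattern were taken by Pearson's r of log2 CPM over the 18 libraries, as a description, since the libraries fall into 6 groups of 2 lines and share depth and scaling. Nqo1, the quinone reductase, was among the nearest for Gsta4 (r = 0.977), Gstm2 (0.966) and Gstm4 (0.954). Ttn (0.985) and Mafg, the transgene's own transcript in T-N1G cells (0.976), were nearest to Mgst1, and B4galnt1 (0.97) and Serpinb9 (0.961) to Gstm1. The others of these sets were Pfn2 for Gsta4 (0.974), Arhgdib for Gstm2 (0.975) and Tle6 for Gstm4 (0.951). Gstp1 was nearest to Rbl2 (0.982) and Ap2s1 (0.981), Gstm5 to Dcun1d2 (0.972) and Stk16 (0.97), Gstt3 to Taz (0.985) and Nsmf (0.98), and Gstt1 to Tbck (0.948) and Vwa5a (0.946). Gsto1 was nearest to Gnb2l1 (0.959), a ribosome-associated scaffold gene, and to Eif1 (0.957), a translation initiation factor.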

How the data were processed

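RNA was sequenced from 18 libraries in 6 groups. The submitters' processing notes name TopHat2 2.0.8b, Cuffdiff 2.1.1, bcl2fastq 2.16.0.10 and the build mm9. The sources used here do not give the annotation, the filters or the counting's use of strand. Per the file headers, the deposited table gives, for each gene in each library, an estimated count of fragments and the FPKM after Cuffdiff's scaling. Per the file headers, a further deposited table gives each gene's locus. Sample titles were linked to libraries by taking Cuffdiff's order as the titles' numbers, and its condition names N1, L-MG and H-MG as T-N1G, 0.3 µM and 1.0 µM, links the files do not state. Between 98.2% and 98.5% of counts per library were whole (tolerance 1e-06), and all were rounded. Reads carry no molecular identifiers, so the floor of 3 fragments covers counting error only. The 2 genes left unprocessed in some libraries were left out, and the 20 genes with a failed FPKM (0 of the members) were kept as counts. Pairs of libraries within a group all differed by more than sampling noise (chi-square over degrees of freedom at least 2.82).

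All genes were fitted at once in edgeR 4.0.16 (R 4.3.3) with 1 mean per group, TMM scaling, its expression filter by group and a robust quasi-likelihood F test, with Benjamini-Hochberg adjustment over 13258 genes and a threshold of 0.05. The procedure was tested on simulated data. SE is the log2 fold change divided by the square root of F, and 95% intervals are normal intervals from it. DESeq2 1.42.0, limma 3.58.1 on log2(FPKM + 1) and log2(FPKM + 0.1), other scalings, a fit without the filter, a fit on only the groups compared, a replicate block, and fits without single libraries or both libraries numbered 3 at 1.0 µM were alternatives. The main fit had no term for the replicate number, so its tests treated libraries as unpaired, and only the replicate block used the number. Same-numbered libraries were called paired, from the data alone, where all 3 of their pairs correlated above 0.1 in their deviations from group means. This held for 6 of the 9 pairs of groups compared, and not for T-N1G against mock cells at 0.3 µM or for 1.0 µM against vehicle or against 0.3 µM in T-N1G cells. What a number marks is not given in the labels. The 10 members, the marker genes and the lists of companion genes were chosen with earlier results of these data known. All members are named. Of each companion list the 3 genes of largest absolute log2 fold change among those called in a comparison are named, and for each member the 2 genes of highest Pearson r. The AP-1 and antioxidant response element letters were searched in RefSeq promoter windows (GRCm38.p6) matched by gene.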

Additional observations from a re-analysis of the deposited data

Results flagged for a closer look

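By edgeR's test of the interaction itself (the log2 fold change against vehicle in T-N1G cells minus that in mock cells), the response to MG132 was higher in T-N1G cells for 5 of the 10 members at each dose, where 14.2% of all genes tested were called higher at 0.3 µM and 22.9% at 1.0 µM. At 0.3 µM the difference was 3.02 for Gsta4, 1.24 for Gstm1, 0.64 for Gstm5, 0.81 for Gstp1 and 2.49 for Mgst1. At 1.0 µM it was 2.19 for Gsta4, 1.45 for Gstm2, 1.93 for Gstm4, 1.10 for Gstm5 and 0.48 for Gstp1. Mgst1 and Gstm4 passed the filter through T-N1G groups alone and had 1 to 14 fragments in each mock library, so their calls are no support. The transcripts of the transgene rose with dose in T-N1G cells, and the part of this in the differences was not tested.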

How the results depend on the processing

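Of 110 results (10 members in 11 comparisons), the side of the threshold and the sign were kept by 110 with median-of-ratios size factors, 108 without the expression filter, 106 with limma on log2(FPKM + 0.1), 105 with limma on log2(FPKM + 1), 105 with DESeq2 and 102 with library size only. Fitting only the groups compared kept 99 and added 5 calls, and Gstm4 and Mgst1 could not be fitted there in mock cells alone. Leaving out both libraries numbered 3 at 1.0 µM kept 95, added 10 calls, lost 1 and turned 4 signs. In these alternatives the number of members called stayed within 1.5 times of that reported, except that the step from 0.3 to 1.0 µM in mock cells went to 6 members, against 3, without both libraries numbered 3 and with limma on log2(FPKM + 0.1). With 1 library left out, the members called between T-N1G and mock cells numbered 5 to 6 under vehicle, 7 to 8 at 0.3 µM and 7 to 9 at 1.0 µM. For 0.3 µM and 1.0 µM against vehicle they were 5 to 6 and 7 to 8 in T-N1G cells, and 6 to 7 and 8 to 9 in mock cells. They were 5 to 6 for the dose step in T-N1G cells and 3 to 6 in mock cells, and 3 to 6 and 3 to 5 for the interactions at 0.3 and 1.0 µM. Signs turned in results that were not called in either fit, and the cause was not tested. With library size only these were Gstp1 at 0.3 µM in T-N1G cells (-0.018), Gsto1 over the dose step in mock cells (-0.027), and Gstm2 (-0.010) and Gstm4 (-0.042) over the step in T-N1G cells. Gstm4 over that step was -0.011 without the filter and -0.007 without both libraries numbered 3, where Gstm2 was -0.118. In the interaction at 1.0 µM, Gstm1 was -0.050 and Gstt1 0.142 without both libraries numbered 3, and Gstm1 was -0.056 with limma on log2(FPKM + 1). With 1 library left out, Gstt3 between the lines at 1.0 µM ran from -0.307 to 0.133, Gstm4 at 0.3 µM in mock cells from -0.791 to 0.109 and Gstm2 at 1.0 µM in T-N1G cells from -0.294 to 0.021. Over the dose step, Gstm2 (-0.119 to 0.220) and Gstm4 (-0.119 to 0.173) in T-N1G cells, and Gsta4 (-0.378 to 0.108), Gstm1 (-0.223 to 0.025) and Gsto1 (-0.038 to 0.101) in mock cells did so too. So did the interactions at 1.0 µM of Gstm1 (-0.023 to 0.146), Gsto1 (0.000 to 0.176), Gstt1 (-0.400 to 0.439) and Gstt3 (-0.151 to 0.289). On log2(FPKM + 1) the low genes shrank, Mgst1 between the lines to 2.98, 4.91 and 4.25 and Gstm4 to 0.71, 1.01 and 1.20 in order of dose.

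Over all groups, the deviations of same-numbered libraries correlated above 0.1 in 35 of 45 pairs (lowest -0.088, median 0.177), and a library correlated best with its own number in 59 of 90 comparisons with another group. The replicate block added 4 calls and lost 0. Gstm2 in the interaction at 0.3 µM (0.812, adjusted p = 0.0217) was among them, Gsto1 and Gstt1 stand beside their results, and the block changed no other call. Counts of 1 to 14 fragments limit Mgst1 and Gstm4 in mock cells.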

Other observations

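Of the 18 further family genes, 11 were not tested, and all of them were near the limit of detection, with 34 or fewer fragments summed over the 9 libraries of either line. More fragments were summed over T-N1G than over mock libraries for 8 of the 11 and fewer for 3. Those with more were Gstp2 (34 against 3), Gstm7 (34 against 10), Mgst2 (33 against 0), Gsta3 (32 against 12), Gstm3 (23 against 0), Gstm6 (16 against 2), Gsta2 (13 against 0) and Hpgds (10 against 8). Those with fewer were Gstt4 (26 against 32), Gstt2 (21 against 26) and Ltc4s (3 against 4). Gstp2 shares sequence with Gstp1, and Gstm3 with Gstm1. These sums were not tested, and the share of all untested genes with more fragments in T-N1G libraries is not given here.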
